A study of Oreochromis niloticus with 5 samples.

Results

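The fast myosin heavy chain cluster of Nile tilapia (Oreochromis niloticus) is a row of 10 loci on linkage group 4, all transcribed from the minus strand between bases 23364260 and 23557891 of the assembly O_niloticus_UMD_NMBU. The members are the 10 listed loci of this row, out of 80416 features in the deposited count table. They were proposed with their values in these libraries already known, so their levels, shares and spreads are described here and not tested. RNA came from the fast (white) muscle of 5 full-sib males, named M1 to M5, with 1 library per fish. The labels give an age of 5 months, while the paper describes a longer rearing in a common tank. The fish were bred in captivity from parents that were collected as eggs from wild females and then reared in captivity. They received no treatment, so all 5 libraries form 1 group and the comparison is between fish. The authors deposited raw counts, whose column sums run from 26750559 in M1 to 90337019 in M2. A fragment that fits several transcripts of a gene was counted at each of them, so these sums are larger than the numbers of fragments counted. In the study's alignment summary M1 stands apart, with a lower share of fragments aligned and assigned than the other libraries. The part of this in the values of M1 was not tested. Below, a normalized count is a count divided by the library's median-of-ratios size factor, and a level is a normalized count per kilobase of exon.

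Myosin heavy chain is the motor of the thick filament. Its head binds actin and splits ATP, and its long coiled-coil tail packs with others into the filament. Vertebrates carry several fast skeletal genes in tandem, and in mammals the copies of such a cluster are used at different stages of development and in different fast fibre types. Fish have larger sets. In common carp, different fast copies are expressed after acclimation to different temperatures.

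The loci read from the low to the high coordinate as LOC100695112 (rna7368 in the count table), LOC100705031 (rna7370), LOC100694850 (gene3768), LOC100689722 (rna7371), LOC100698204 (rna7373), LOC102083013 (rna7374), LOC100702068 (rna7375), LOC100712344 (rna7376), LOC100706261 (rna7377) and LOC100707599 (rna7378), so that LOC100707599 is the first in the direction of transcription. They span 194 kb, and the gaps between neighbours run from 2910 to 29009 bases, with the widest between LOC100706261 and LOC100707599. LOC100707599 lies at chrLG4:23546410-23557891 and LOC100712344 at chrLG4:23482736-23494045, each with 41 exons. LOC100706261 lies between them at chrLG4:23506113-23517400 with 39 exons. RefSeq lists 9 of the 10 as protein coding and LOC100694850, at chrLG4:23401562-23404299, as a pseudogene. The study's supplement names LOC100712344, LOC100706261 and LOC100707599 as fast skeletal muscle myosin heavy chains. The remaining copies carry no gene name in the tables used here. The protein-coding ones are counted with them by their place in the row and their gene structure, and the pseudogene by its place in the row.

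That structure was almost the same in the 9 protein-coding copies. Each has between 35 and 41 exons and between 5583 and 6105 bases of exon. When the exons were aligned from the fourth exon of LOC100707599 onwards, 34 exons were present in all 9 copies, and 31 of them had the same length in every copy. The other 3 differed between copies. Exon 7 of LOC100707599 was 112 bases long, and its counterpart was 109 bases in LOC100695112 and LOC100705031. Exon 17 was 71 bases long in LOC100707599, LOC100706261, LOC100712344 and LOC100702068, which are the 4 copies nearest to the high end of the row. It was 74 bases in LOC102083013 and LOC100689722, and 77 bases in LOC100698204, LOC100705031 and LOC100695112. The steps of 3 and 6 bases are whole codons. In LOC100705031 the last listed exon was 276 bases, against 171 bases for its counterpart in the other 8. In those 8 copies an exon of 105 bases follows. The pseudogene LOC100694850 is a fragment with 8 exons and 1215 bases, and 3 of its exon lengths recur in the same order in LOC100707599. No sequence of these loci was at hand, so the identity between copies was not measured. A fragment that fits several copies was counted at 1 of them, and its part in the values below was not tested.

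The summed cluster differed little between fish. Summed over the 10 loci, the level was 385111, 370079, 308114, 382154 and 354487 from M1 to M5. The mean was 359989 ± 31406 normalized counts per kb (SD, n = 5 fish), and the highest fish stood 1.25-fold above the lowest. M3 was the lowest, and without it the SD of the log2 total fell from 0.13 to 0.05. In 1 form of the library total, chosen after seeing the data, each gene was entered once, by its most expressed transcript. Features matched to no single gene were left out of it. The cluster took 11.8% ± 0.760 of the counts in this total and 4.01% ± 0.175 of its counts per kb (SD, n = 5). Over all listed transcripts, a total in which fragments of genes with several transcripts enter more than once, it took 5.10% ± 0.454 of the counts and 2.1% ± 0.0984 of the counts per kb. Of 1447 genes outside the cluster with a mean of at least 1000 normalized counts, each counted by its most expressed transcript, 8.85% had a smaller SD, and a sum of several genes is steadier than its parts wherever these do not all move together.

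**Figure D1:**
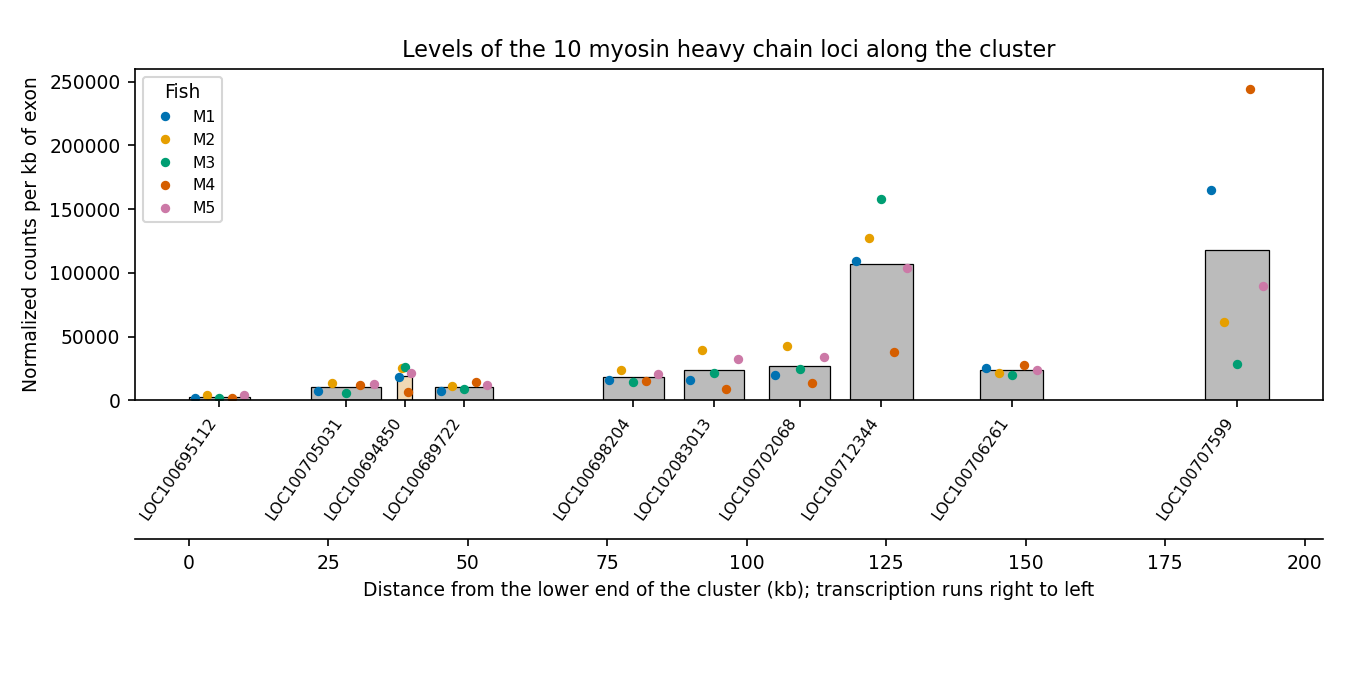
Levels along the cluster. Each bar is a locus drawn to scale along the x axis (distance from the low end, in kb), its height is the mean normalized count per kb of exon over 5 fish, and the points are the fish; the pale bar is the pseudogene. The bars of LOC100712344 and LOC100707599 stand far above the other 8, and their points spread from 38172 to 157796 and from 28304 to 244516.

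Within this total, LOC100707599 and LOC100712344 carried most of the signal and changed places between fish. LOC100707599 had a level of 165153, 61428, 28304, 244516 and 89973 from M1 to M5. LOC100712344 had 109124, 127394, 157796, 38172 and 103717 from M1 to M5. M4, the fish with the most LOC100707599, had the least LOC100712344, and M3 showed the opposite extreme. LOC100707599 was the leading copy in M1 and M4, and LOC100712344 in M2, M3 and M5.

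As a share of the cluster's counts per kb, LOC100707599 took 42.9%, 16.6%, 9.19%, 64.0% and 25.4% from M1 to M5. The shares of LOC100712344 were 28.3%, 34.4%, 51.2%, 9.99% and 29.3% in the same order of fish. Shares of 1 total are bound to trade against each other. The levels, which are not, were ordered oppositely in 9 of the 10 pairs of fish. The exception was M1 against M5, in which both copies were higher in M1. How many genes outside the cluster are ordered as oppositely was not counted, and the pair was picked with its values known. The ratio of LOC100707599 to LOC100712344 was 6.41 in M4, and the inverse ratio was 5.58 in M3. In M5 the inverse ratio was 1.15, so that fish used both about equally. The log2 ratio was -0.09 ± 1.92 (SD, n = 5), so no order of this pair holds across fish. With M4 left out, its mean became -0.78. Together both copies took between 51.0% of the cluster in M2 and 74.0% in M4, and their summed level differed 1.52-fold between fish.

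**Figure D2:**
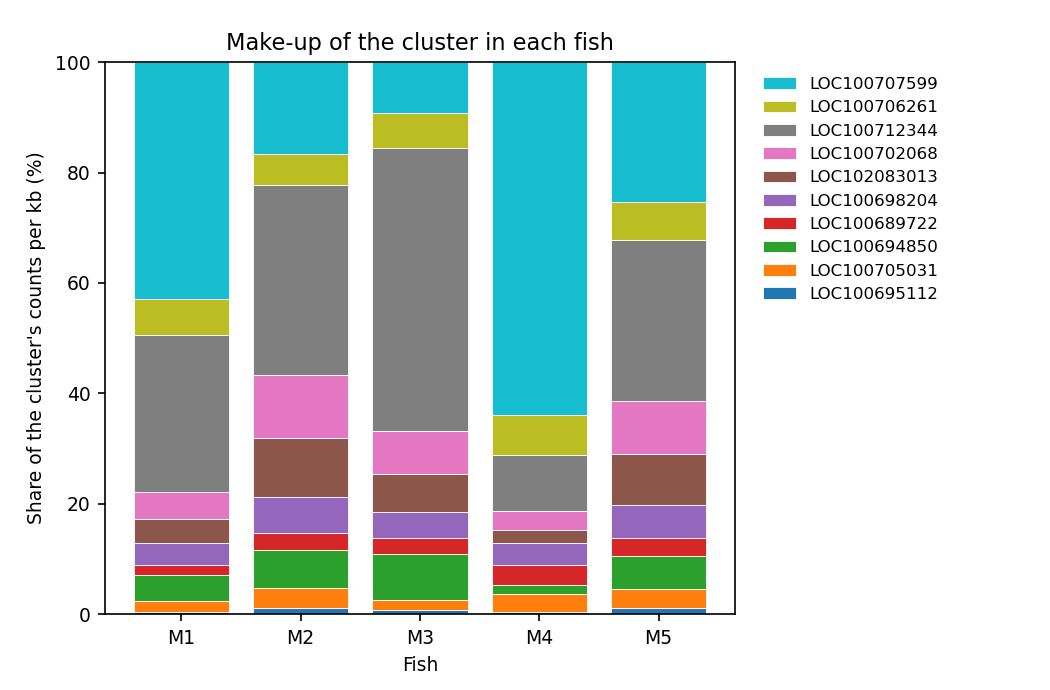
Make-up of the cluster in each fish. Each bar is 1 fish, and its segments are the percent of the cluster's counts per kb in each locus, stacked in gene order. The top segment, LOC100707599, runs from 9.19% in M3 to 64.0% in M4, while the segment of LOC100706261 stays between 5.69% and 7.27%.

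The other 8 loci followed at a distance. By mean level the order was LOC100702068 at 26668 ± 11607, LOC102083013 at 23697 ± 12411, LOC100706261 at 23595 ± 3250 and the pseudogene LOC100694850 at 19293 ± 7931 (SD, n = 5). Next came LOC100698204 at 18037 ± 4232, LOC100689722 at 10595 ± 2673, LOC100705031 at 10300 ± 3301 and LOC100695112 at 2688 ± 1319 normalized counts per kb (SD, n = 5). The within-fish log2 ratio of neighbours in this order exceeded its SD between fish at 4 steps. These were LOC100712344 over LOC100702068, LOC100702068 over LOC102083013, LOC100698204 over LOC100689722, and LOC100705031 over LOC100695112, each with the same sign in 5 of 5 fish. The order of LOC102083013, LOC100706261, LOC100694850 and LOC100698204 among themselves, and that of LOC100689722 and LOC100705031, did not hold beyond the spread. LOC100695112, at the low end of the row, was the last of the 10 in every fish. Even there the smallest count was 5553, for which counting error alone is 1.34%, so the depth does not limit these values.

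Grouped by exon structure, the 4 copies with the 71-base form of exon 17 took 76.3% ± 7.25 of the cluster (SD, n = 5), with 82.8%, 68.2%, 74.7%, 84.7% and 71.0% from M1 to M5. The 2 copies with the 74-base form took 9.61% ± 3.58, and LOC100698204 took 5.02% ± 1.13. The 2 copies at the low end, with the shorter exon 7 as well, took 3.59% ± 1.11 (SD, n = 5). Thus the 4 copies at the high end of the row held most of the level in every fish. Most of this was LOC100707599 and LOC100712344, with a mean joint share of 62.3%. The mean shares of LOC100702068 and LOC100706261, 7.49% and 6.55%, were near the 6.66% of LOC102083013, which has the 74-base form. The level did not fall evenly along the row, since LOC100706261 and LOC100689722 each had a lower mean than both of their neighbours.

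Most copies had a wide range between fish. The highest fish stood at least 2-fold above the lowest for 7 of the 10 members, against 25.8% of the 1447 genes outside the cluster. The median SD of log2(normalized count + 1) was 0.68 over the members and 0.28 over those genes. An SD of at least 1 was reached by 1 member, LOC100707599 at 1.22, and by 4.98% of the other genes. Since the members were picked with these values in view, they describe the cluster and are not evidence that it stands apart. The steadiest member was LOC100706261, a named fast myosin heavy chain, with an SD of 0.20. Its normalized count was 150548, 125111, 117072, 164954 and 142747 from M1 to M5, a range of 1.41-fold.

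**Figure D3:**
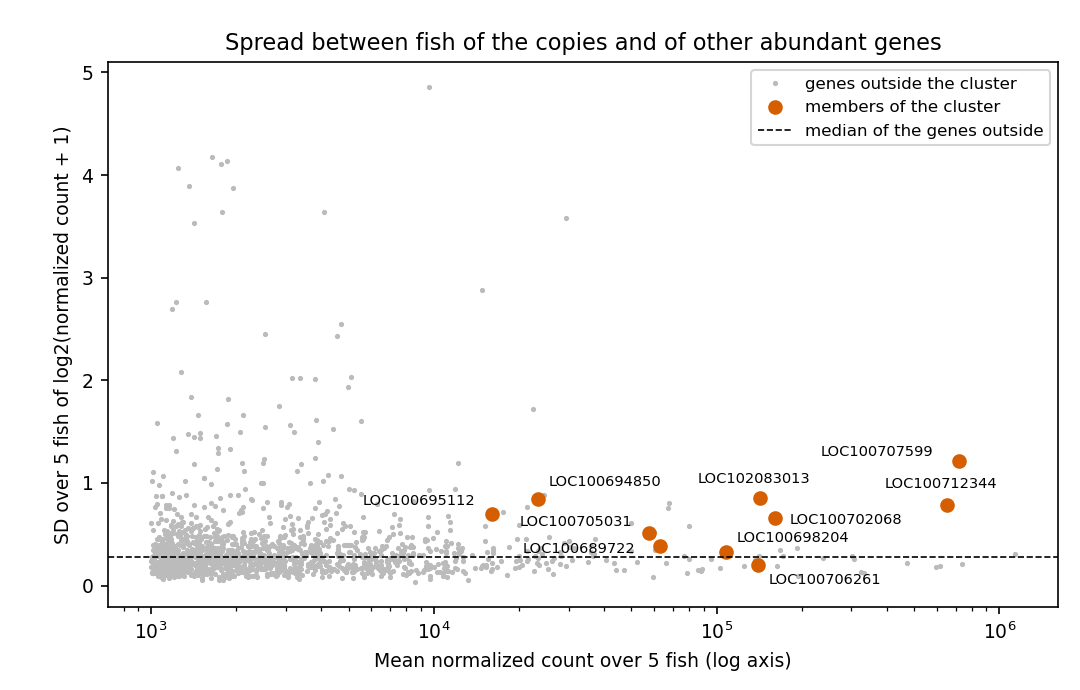
Spread against abundance. Each point is a gene with a mean of at least 1000 normalized counts (x, log axis), plotted against its SD of log2(normalized count + 1) in 5 fish; orange points are the 10 members and the dashed line is the median of the 1447 other genes, 0.28. All members but LOC100706261 lie above the line, and LOC100707599 is the highest of them at 1.22.

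The copies were sorted into 3 sets by the fish in which they were highest and lowest, which does not always put the most similar copies together. LOC100712344, the pseudogene LOC100694850, LOC102083013 and LOC100702068 were lowest in M4. LOC100707599, LOC100706261 and LOC100689722 were highest in M4. LOC100695112, LOC100705031 and LOC100698204 were highest in M2 and lowest in M1 or M3, while LOC102083013 and LOC100702068 of the set low in M4 were highest in M2 as well. These sets rest on 5 fish, which are too few for a correlation. Likeness is therefore given as the number of the 10 pairs of fish that a pair of copies orders the same way. The share of genes outside the cluster was taken only for all 10 pairs alike or opposite, so lower counts have no such share beside them.

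**Figure D4:**
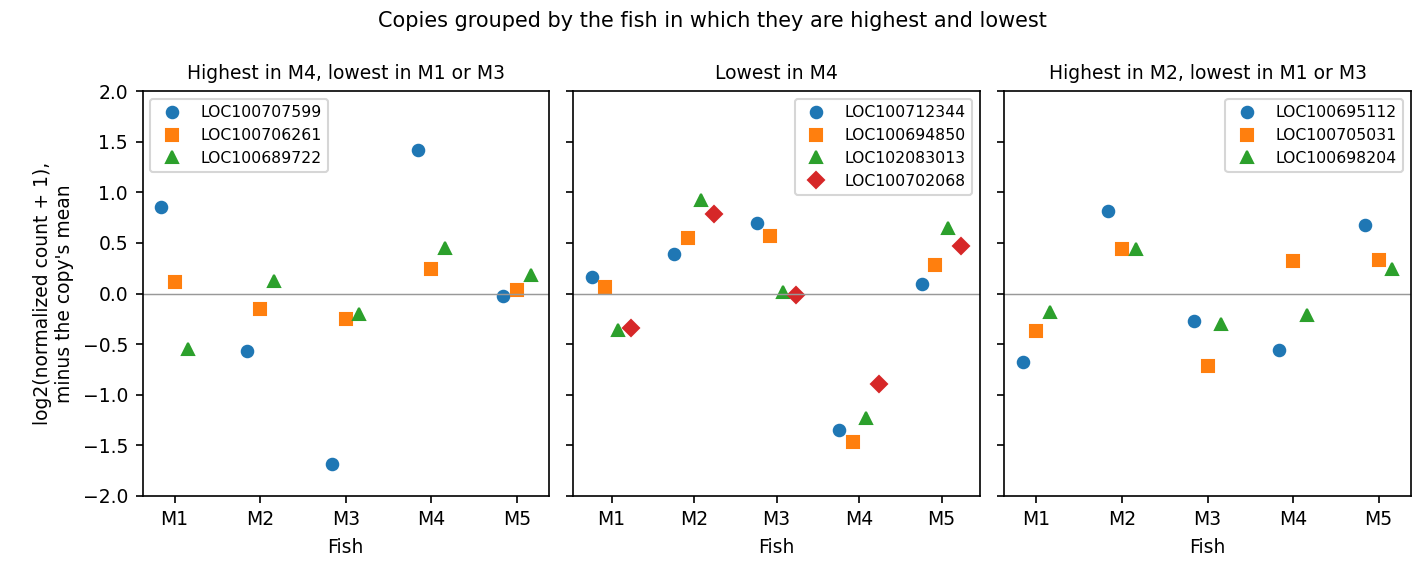
Profiles over fish. Each panel shows 1 set of copies, with the fish on the x axis and log2(normalized count + 1) minus the copy's mean on the y axis. In the middle panel all 4 copies drop in M4, by 0.90 to 1.46, and in the left panel LOC100707599 runs from -1.69 in M3 to 1.42 in M4.

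LOC102083013 and LOC100702068, which lie side by side, were ordered alike in 10 of 10 pairs of fish. LOC102083013 had 97437, 238103, 126484, 53530 and 196316 normalized counts from M1 to M5. LOC100702068 had 116925, 254809, 146274, 79575 and 204999 in the same order. Both were highest in M2 and lowest in M4, and the SD of their log2 ratio was 0.20. Of the 1447 genes outside the cluster, 1.04% had the same order in all 10 pairs. That share is for 1 fixed order. Among the copies, 2 of 45 pairs were alike throughout and were picked for it, so such a share does not measure chance for them.

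LOC100707599 and its neighbour LOC100706261 were likewise ordered alike in 10 of 10 pairs, with M4 highest, then M1, M5, M2 and M3. Outside the cluster, 0.553% of genes had that order. With library totals as the scaling, M5 stood above M1 for LOC100706261 but not for LOC100707599, so this pair was no longer alike throughout. The size of the differences was not alike, since LOC100707599 differed 8.64-fold between fish and LOC100706261 by 1.41-fold. LOC100707599 differed 3.98-fold without M3 and 5.84-fold without M4.

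The pseudogene LOC100694850 followed LOC100712344, which lies 5 places further along the row. Its normalized count was 21935, 30809, 31198, 7633 and 25631 from M1 to M5. Its level was 16.5%, 19.9%, 16.3%, 16.5% and 20.3% of that of LOC100712344 in the same fish, or 17.9% ± 2.03 (SD, n = 5). The SD of the log2 ratio, 0.16, was the smallest among the 45 pairs of copies, and the pair was ordered alike in 9 of 10 pairs of fish. The exception was M1 against M5. Whether fragments of LOC100712344 aligned to the pseudogene was not tested.

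Against LOC100707599 and LOC100706261, the pseudogene was ordered oppositely in 10 of 10 pairs of fish. Of the genes outside the cluster, 1.31% were likewise ordered oppositely to LOC100707599 and LOC100706261 in all 10 pairs, and 0.553% were ordered oppositely to the pseudogene. M2 and M3 lay close for the pseudogene, and with edgeR's TMM scaling their order turned, which left 0 pairs of copies ordered oppositely in all 10. With library totals as the scaling, the pseudogene and LOC100706261 were no longer ordered oppositely in M1 against M5. In the set that was low in M4, the ranges of LOC100712344 and the pseudogene rested largely on that fish. Without M4, the 4.13-fold range of LOC100712344 became 1.52-fold, and that of the pseudogene went from 4.09-fold to 1.42-fold. That of LOC102083013 went from 4.45-fold to 2.44-fold and that of LOC100702068 from 3.20-fold to 2.18-fold, so both kept a wide range.

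**Figure D5:**
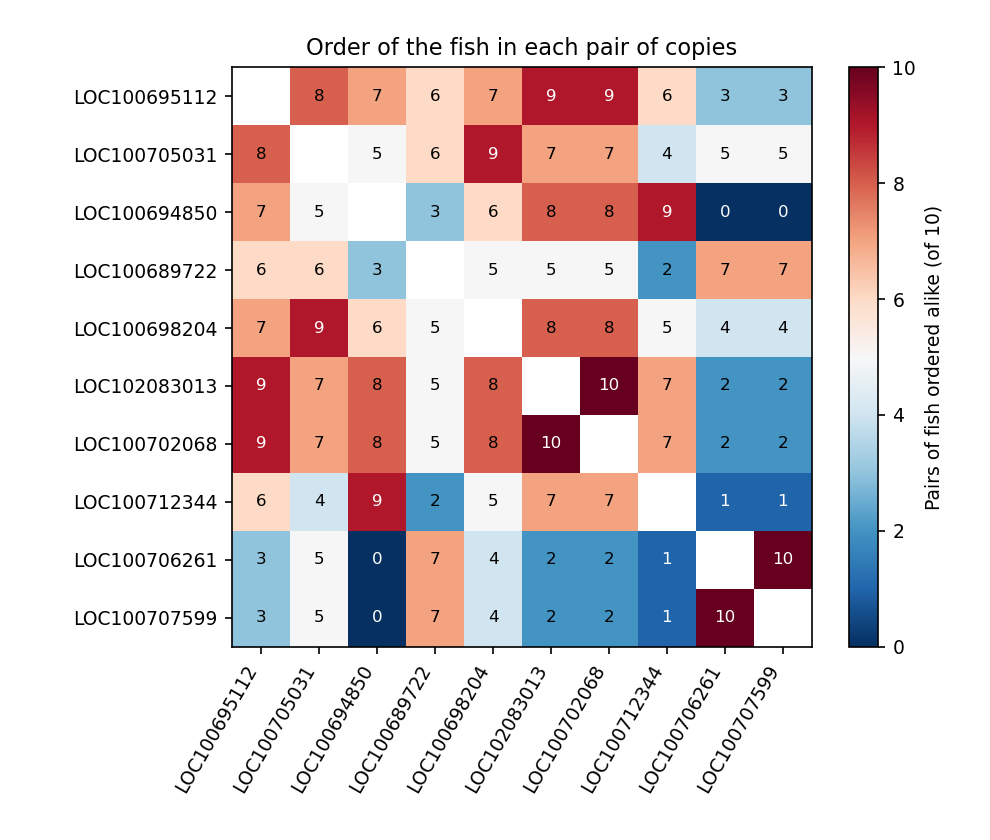
Order of the fish in each pair of copies. Rows and columns are the 10 loci in gene order, and each cell gives the number of the 10 pairs of fish that both copies order the same way (10, red: always alike; 0, blue: always opposite). The 2 cells at 10 are both pairs of direct neighbours, and the cells at 0 join the pseudogene with LOC100706261 and LOC100707599.

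The set that was highest in M2 was less uniform. LOC100695112 had 9142, 25777, 12109, 9933 and 23370 normalized counts from M1 to M5, so M2 and M5 stood apart from the other fish. It was closer to LOC102083013 and LOC100702068 than to the rest of its set. It was ordered like each of them in 9 of 10 pairs of fish, with SDs of the log2 ratio of 0.40 and 0.29, against 8 and 0.58 for LOC100705031 and 7 and 0.42 for LOC100698204. LOC100705031 had 42272, 74283, 33263, 68549 and 69155, with M4 among the high fish. LOC100698204 had 93748, 144226, 85935, 91763 and 125798, a range of 1.68-fold. LOC100689722, lowest in M1, had 41969, 66671, 53276, 83447 and 69357 from M1 to M5. This copy was ordered like LOC100707599 in 7 of 10 pairs of fish. Direct neighbours had a median SD of the log2 ratio of 0.63 over 9 pairs of copies, and copies further apart 0.78 over 36, so closeness in the row went with likeness only in part.

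Counts were low on both sides of the row. The 3 nearest genes on each side had mean levels between 0.569 (LOC102082566) and 44.3 (pet100) normalized counts per kb, against 2688 for the lowest member. Of the noncoding RNAs inside the row, LOC102082955 had no count in any fish, which allows up to 3 counts in each. LOC112846715, which lies between LOC100695112 and LOC100705031, had raw counts of 385, 44, 1, 0 and 38 from M1 to M5. M1, the library with the lowest total, had by far the most, with 634 normalized counts against at most 37.9 elsewhere.

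The same series of exon lengths was sought in the rest of the table. Besides the cluster, 14 loci shared at least 16 of the 31 common exon lengths in the same order, among them myh7ba, a gene of the slow and cardiac myosin type. Of these loci, 11 had a mean under 10 normalized counts, including LOC100705928 on linkage group 4, with 1 count in M2 and none in the other fish. That locus too is named as a fast myosin heavy chain in the study's supplement. The mean of myh7ba was 54.6. LOC100701798, at chrLG5:19940868-19952952, shares all 31 lengths and was the only one with a mean of at least 1000. It had 124882, 388, 555, 19614 and 1536 normalized counts from M1 to M5. Its level in M1 equalled 5.37% of the cluster's, and only 3 members were above it there. In M4 it equalled 0.851% of the cluster's, and in the other fish at most 0.0718%. Its neighbour LOC100701165, also with all 31 lengths, was highest in M1 and M4 too, with 771 and 594 normalized counts against at most 77.7 elsewhere.

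Proteins that fold myosin and build the thick filament were taken from a list of 19 genes, all of which were matched and 15 of which had a mean of at least 1000. For genes of the finished filament the SD of log2(normalized count + 1) was 0.37 for mybpc2b, 0.33 for myom2a and 0.29 for ttn.2, against the median of 0.28 over genes outside the cluster. Filament genes of the list with a mean of at least 1000 lay between 0.19 for obscnb and 0.38 for myom1b. Those with lower means, mybpc1, obscna and mybpc2a, at 231, 325 and 7.19 normalized counts, each had an SD of at least 1. The largest was 3.24, for mybpc1. The myosin-binding protein gene mybpc2b had 192285 ± 46277 normalized counts, and the titin gene ttn.2 had 171457 ± 34574 (SD, n = 5). The M-band gene myom2a had 35957 ± 7853 (SD, n = 5). Of the folding genes, the Hsp90 cochaperone gene stip1, with a mean of 370 normalized counts, had an SD of 0.21, while unc45b, hsp90aa1.1 and hsp90aa1.2 had SDs of 1.46, 2.04 and 2.69. For unc45b, a chaperone that works with Hsp90 on the myosin head, the values were 1525, 1062, 561, 5002 and 360 from M1 to M5. The Hsp90 gene hsp90aa1.1, needed for myosin folding in zebrafish muscle, had 4457, 2005, 583, 17699 and 685. The second gene, hsp90aa1.2, had 925, 952, 66.1, 3918 and 51.8 from M1 to M5. These paralogs have neighbouring entries in the table, and fragments could be split between them. M4 was above the other fish for all 3 chaperone genes, and it was also the fish with the most LOC100707599.

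The methyltransferase gene smyd1b, whose product acts on myosin assembly in zebrafish, had 1683, 1238, 895, 3922 and 1022 normalized counts from M1 to M5, with M4 again highest. Its paralog smyd1a was lowest in M4, with 14300, 18975, 12698, 11868 and 19342. Since all fish share 1 condition, the part of the chaperones in the differences between copies was not tested.

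Of 29 listed regulators of muscle fibre type, 25 were matched and 8 had a mean of at least 1000. Among these 8 the SDs of log2(normalized count + 1) were 0.06 for mef2d, 0.12 for nfixa, 0.20 for six4a, 0.26 for eya4, 0.27 for mef2ca, 0.46 for mef2aa and 0.76 for vgll2b. The largest, 1.00, was that of nfatc1, a calcium-dependent factor that favours slow fibre genes in mammals. It had 1735, 1570, 8666, 2519 and 3800 from M1 to M5, so it was highest in M3, the fish with the most LOC100712344. The other fish did not follow. M2, lowest for nfatc1, had the second most LOC100712344, and M5, second highest for nfatc1, had the second least. The part of nfatc1 was not tested.

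For each copy, the genes with the most similar profile outside the cluster were those with the smallest SD over 5 fish of the log2 ratio to it. The smallest value was that of LOC100706261, the steadiest member, with cnksr1 at 0.04, pdhx at 0.08 and mvp at 0.08. LOC100698204 had eif1, a translation initiation factor, at 0.07 and vapal at 0.07. For LOC100689722 they were sqstm1, an autophagy receptor, at 0.14, dusp1, a phosphatase of MAP kinases, at 0.16 and rgcc at 0.18. LOC100702068 had LOC102078435 at 0.16 and ptk6b at 0.19. For LOC100707599 no gene came closer than LOC100694402, at 0.39, and for LOC100712344 none closer than gtpbp2a, at 0.33. Each was taken from 1447 genes over 5 fish, where close matches arise by number alone. The measure also depends on a copy's own SD, which was 0.20 for LOC100706261, 0.79 for LOC100712344 and 1.22 for LOC100707599. Its values are therefore not compared between copies.

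Among the matched cell type markers, those of fast fibres had by far the highest counts. Of 16 listed fast fibre genes, 10 were matched, and their summed normalized count ran from 3602080 in M3 to 4340094 in M1. The sum was carried by the 7 genes with a mean of at least 1000. The matched genes below it, mylpfb, atp2a1 and acta1a, had means of 458, 79.3 and 40.8. Of 15 slow fibre genes, 7 were matched. The only slow myosin heavy chain gene among these was myh7ba, and the others of the list could not be read. Of the matched genes, tnni1b was at 0 in all libraries and tnnt1 at no more than 6.59. Not all were that low, since atp2a2a had between 122 and 285, and mb between 262 and 733 outside M1. The sum of the 7 was 3260 in M1 and between 434 and 1077 in the other fish. In M1 it was carried by mb at 1958 and mybpc1 at 1126. Of 8 cardiac genes, 3 were matched, none of them a myosin heavy chain, with a sum of at most 1.65. The sum of 7 matched fibroblast genes was 48505 in M1 and between 17562 and 28860 in the others. That of 2 red blood cell genes lay between 115 and 242, and that of 3 adipocyte genes between 1235 and 2056. The 7 matched genes of satellite cells and new fibres summed to 5244 in M4, the highest, and 3278 in M3, the lowest. The part of these lists in the differences between copies was not tested. In whole tissue, fewer fibres that use a copy and less of its RNA per fibre cannot be told apart.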

How the data were processed

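The authors trimmed paired-end reads of rRNA-depleted libraries, aligned them with HISAT2 2.1.0 and counted fragments with featureCounts on the NCBI annotation. The deposited values are raw counts, with 1 column per fish and 0 columns left unused. Only primary alignments were counted, so a fragment that fits several copies was placed at 1 of them, but a fragment was counted at every transcript it matched. The strand setting of the counting is not given in the sources used here. Exon lengths are those the authors deposited beside the counts.

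Counts were divided by DESeq2 1.42.0 size factors (R 4.3.3, a design without groups). Levels are per kb of exon, and spread is the SD of log2(normalized count + 1). No groups were compared and no difference was tested. Dixon's ratio served only to list single distant fish. Features were matched by position to RefSeq symbols of O_niloticus_UMD_NMBU, 77800 of them to 1 gene each and the 10 members exactly. The gene lists were matched by symbol. Other myosin heavy chains were to be found by gene description, which the gene table does not hold, so they were sought by exon lengths, a rule chosen later. Named genes are the members, genes of the folding and filament list, regulators with a mean of at least 1000, and the 3 genes most like each copy, of which the closest are given. Fast and slow fibre markers named with values were chosen after their values were seen. The members, lists and rules were chosen with earlier results of these data known. The calculations, in Python 3.11.15 with pandas 2.3.3, were tested on simulated data. Alternatives were edgeR 4.0.16 TMM factors, library totals, no division by length, a pseudocount of 0.1, other filters, and leaving out each fish. An interval that rests on counts covers counting error only, since PCR reads without molecular identifiers are not independent molecules.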

Additional observations from a re-analysis of the deposited data

Results flagged for a closer look

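In each set of 5 values, the distance of the most extreme fish from its nearest neighbour was set against the range, with Dixon's critical value of 0.71. Of 41 sets, 7 were past it. Chance gives about 2.05 if the sets are independent and their values normally distributed. Counts and sums entered without logarithms, where right-skewed values pass more readily, so the excess over 2.05 is not read as evidence of distant fish. The 41 include 21 sets of members' values, of which 0 were past it. All these sets overlap and were chosen with earlier values known. The number past it is therefore a description, and nothing is concluded from the members' own sets. Of the sets past it, 3 were high in M1, the library with the lower alignment in the study's summary. LOC112846715, the noncoding RNA inside the row, reached 634 normalized counts in M1, against 37.9 in the second highest fish. LOC100701798 on linkage group 5 reached 124882 in M1, against 19614 in M4. The summed slow fibre list reached 3260 in M1, against 1077 in M4.

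The other 4 were genes of the myosin folding and thick filament list that were high in M4. In M4 and the second highest fish they had 17699 and 4457 for hsp90aa1.1, 3918 and 952 for hsp90aa1.2, 5002 and 1525 for unc45b, and 3922 and 1683 for smyd1b. In all 4 the second was M1 except for hsp90aa1.2, where it was M2. M4 and M1 were also the fish with the most LOC100707599. The part of these genes in its level was not tested.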

How the results depend on the processing

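No paired analysis was possible because all 5 libraries belong to 1 group. A value was taken as moved when it changed by more than its SD between fish, or, for spreads and counts, by more than 1.5 times. Apart from leaving out fish, 75 values kept within this and 9 moved. Without division by length the cluster took 5.10% of a library's counts. With 1 feature per gene in the total, chosen after seeing the data, it took 4.01% per kb and 11.8% of counts. Without division by length the pseudogene took 1.16% of the cluster. With TMM factors 0 pairs of copies were ordered oppositely in all pairs of fish, against 2. With library totals 2 pairs were alike throughout and 2 opposite throughout, as before, but LOC100706261 was in none of them. By shares instead of levels, 4 pairs of copies were ordered alike throughout, against 2. LOC100706261 and LOC100707599 were not among these 4, with 8 of 10 pairs of fish alike. Pairs ordered oppositely throughout stayed at 2, but the pseudogene and LOC100706261 were then alike in 2 of 10. Without a filter the median SD of other genes was 0.48 and 11.6% of them reached an SD of 1, and over every listed feature 3.18% did. With each fish left out, 136 values kept within the limit and 9 moved. Leaving out 1 of 5 fish cannot shift a mean by more than its SD between fish. The cluster total, the shares and the log2 ratio were therefore bound to be kept, and only spreads and counts could move. The mean log2 ratio of LOC100707599 to LOC100712344 ranged from -0.78 to 0.50. The pairs of copies ordered alike throughout then numbered 2 to 8, with 8 without M1, 8 without M3 and 5 without M4. Those ordered oppositely numbered 2 to 8, with 6 without M1, 8 without M3 and 4 without M5. Fewer fish give fewer pairs of fish to meet. The SD of log2 ranged from 0.27 to 0.91 for LOC100712344, lowest without M4, from 0.24 to 0.97 for the pseudogene and from 0.0544 to 0.152 for the cluster total, lowest without M3. The share of LOC100707599 ranged from 23.5% to 37.2% and that of LOC100712344 from 25.5% to 35.8%. Leaving out the pseudogene, chosen after seeing the data, moved no share. With 5 fish of 1 condition, differences between fish cannot be assigned to any factor.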

Other observations

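The copies shared the signal more evenly in some fish than in others. The inverse of the summed squared shares, which equals 1 when a single copy carries everything and 10 when all carry the same, was 3.60, 5.4, 3.38, 2.32 and 5.5 from M1 to M5. M4, led by LOC100707599, and M3, led by LOC100712344, were the fish with the fewest copies in this sense, and M2 and M5 drew on the most. The level of the 8 loci other than these 2 summed to 110834, 181256, 122015, 99466 and 160796 from M1 to M5, so it was highest in M2 and M5 as well.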
